A study of Mus musculus with 8 samples.

Results

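The genes described here are 9 that steer B cells or make the lipid that steers them: the chemokine receptors Ccr7, Ccr6, Cxcr4 and Cxcr5, the sphingosine 1-phosphate receptors S1pr1 and S1pr2, the oxysterol receptor Gpr183, and the sphingosine kinases Sphk1 and Sphk2. They were chosen by name and found by matching their symbols to the Ensembl gene identifiers of the deposited table, which holds 15681 genes. All 9 had a row, and all 9 were among the 12489 genes tested, which reached 1 RPM (reads of a gene per M reads of the library, M being the mega prefix) in at least 2 libraries. Of the 9, 8 reached that level in every library. Sphk1 reached it in 3, both control libraries and Max_KO replicate 1, so that it entered the test through the libraries in which it was high.

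By its title, the study concerns how Myc and its dimerisation partner Max act together as B cells differentiate. Mature B cells were sorted from mouse spleen, stimulated for 72 h with lipopolysaccharide (20 µg/ml) together with interleukin 4 (20 ng/ml), and their RNA was sequenced. The mice were aged 8 to 10 weeks, and the 4 groups of 2 libraries each were heterozygous controls (control), Myc knock-out (Myc_KO), Max knock-out (Max_KO) and cells with both genes knocked out (double_KO). The labels give neither the alleles nor the driver of deletion, and do not say at which locus the controls were heterozygous. They are also silent on whether replicate libraries stem from different mice, and p-values here cover the spread between libraries alone, which may be technical. Totals were 14.88 to 17.91 M estimated reads a library. Groups were taken from the sample titles, which are also the column names of the table. For 2 libraries, double_KO replicate 1 and Myc_KO replicate 2, the description and genotype fields give the other of these genotypes. Max was at 28.6 and 31.2 RPM in the libraries titled double_KO, at 70.5 and 59.8 in those titled Myc_KO, at 16.4 and 15.5 in Max_KO and at 55 and 54.5 in the controls. Myc was at 48.3 and 55.8 RPM in Myc_KO, 38.8 and 55.4 in double_KO, 192 and 176 in Max_KO, and 111 and 116 in the controls. The level of Max thus went with the titles and against the descriptions of these 2 libraries.

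As background, B cells find their place in spleen and lymph node by following gradients through receptors coupled to G proteins. CCR7 draws them towards the T cell zone, CXCR5 into the follicle, GPR183 to the follicle's outer rim and CXCR4 to niches such as bone marrow and the dark zone of germinal centres, while CCR6 responds to CCL20. Sphingosine 1-phosphate, which is high in blood and lymph, pulls lymphocytes out of the tissue through S1PR1 and confines germinal centre B cells through S1PR2, and SPHK1 and SPHK2 make it by phosphorylating sphingosine.

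Sphk1, S1pr2 and S1pr1 were the members that passed the test in all 3 knock-out groups. Sphk1 and S1pr2 fell and S1pr1 rose, while Cxcr4 rose in Myc_KO. For the other 5 members no change against the controls passed the threshold. In number, 4 of the 9 members were called in Myc_KO, beside 45.4% of all genes tested. In Max_KO 3 were called, beside 39.7%, and in double_KO 3, beside 38.6%. The called genes that were higher made up 24.0%, 22.3% and 21.8% of all genes in the 3 groups and those that were lower 21.4%, 17.4% and 16.8%, beside 2 and 2, 1 and 2, and 1 and 2 members. These shares are near those of all genes, so that they do not set the 9 genes apart. Libraries of the group lay wholly above the controls for 3 members in Myc_KO, 2 in Max_KO and 1 in double_KO, beside 37.9%, 38.3% and 38.6% of all genes, and wholly below for 3, 3 and 3, beside 37.1%, 35.4% and 35%. The median log2 change of the 9 members was 0.06, 0.02 and -0.07 in Myc_KO, Max_KO and double_KO, beside 0, 0.02 and 0.02 over all genes. Calls are those of limma, fitted over all genes, with Benjamini-Hochberg adjustment and a threshold of 0.05. The 3 comparisons share the same 2 control libraries. The member count was 1 in Max_KO without control replicate 2 or Max_KO replicate 2, and 1 in double_KO without control replicate 2, double_KO replicate 1 or double_KO replicate 2.

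**Figure D1:**
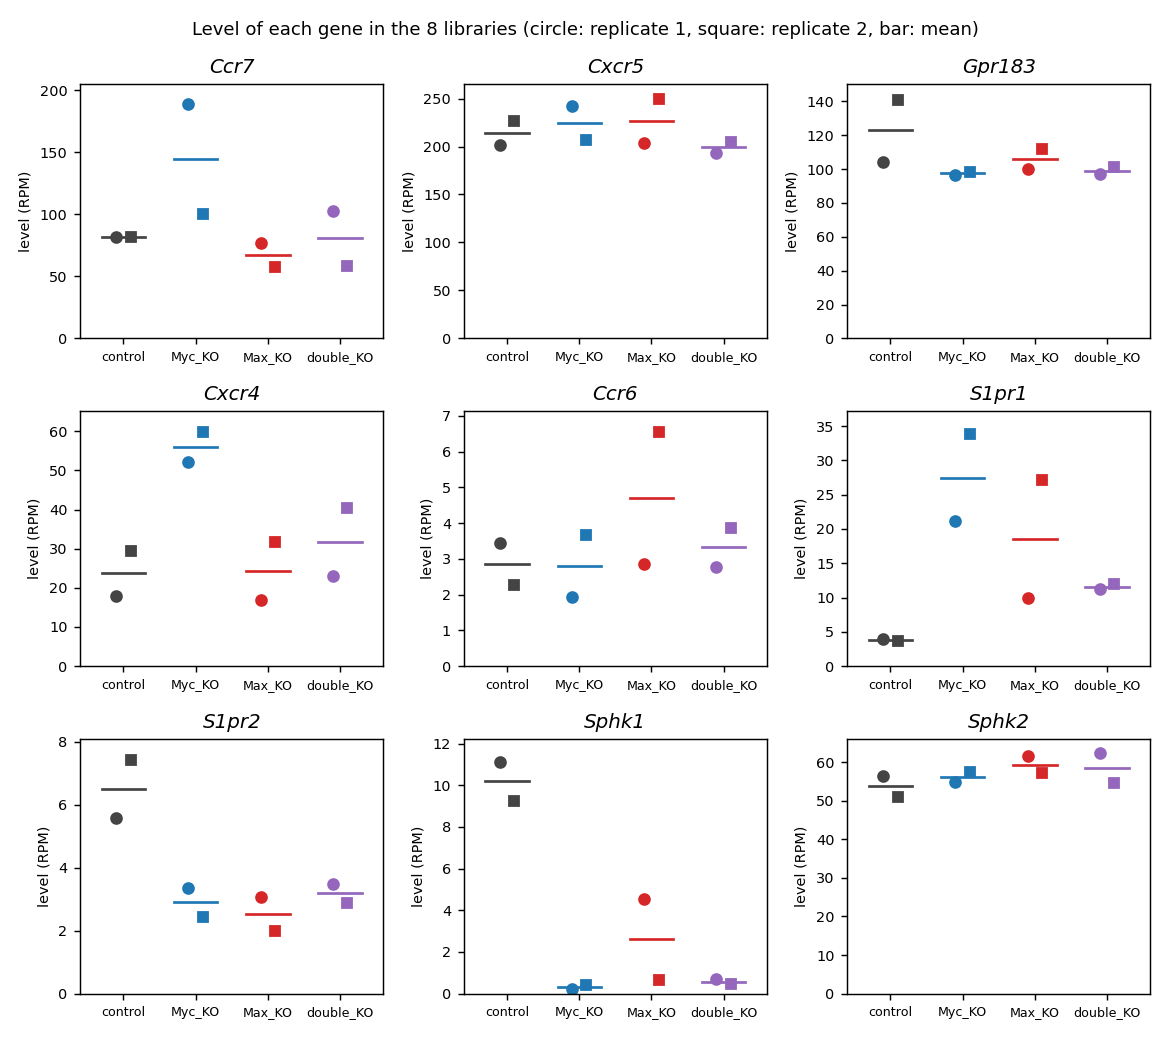
Level in RPM of each of the 9 genes in the 8 libraries, with 1 point per library (circle for replicate 1, square for replicate 2) and a bar at the mean of the group; each vertical axis starts at 0. Sphk1 and S1pr2 are below both control libraries in all 6 knock-out libraries and S1pr1 is above them in all 6, while Cxcr5 and Sphk2 span little more than their spread within groups.

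Sphk1 (ENSMUSG00000061878, GRCm38 chromosome 11, 116530925 to 116536674, plus strand) encodes the inducible, mainly cytoplasmic sphingosine kinase. The control libraries had 11.1 and 9.22 RPM. It was at 0.23 and 0.4 in Myc_KO, at 0.69 and 0.47 in double_KO, and at 4.54 and 0.65 in Max_KO replicates 1 and 2. Both control libraries were above all 6 knock-out libraries, and Max_KO replicate 1 was well above the other 5 of them. The estimated reads behind these levels summed to 330 in the controls, 10 in Myc_KO, 20 in double_KO and 92 in Max_KO, so that the knock-out levels rest on few reads.

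The group mean of Sphk1 was 32.2-fold lower in Myc_KO than in the controls (log2 change -5.06 ± 0.818 SE, limma adjusted p = 0.00162) and 17.6-fold lower in double_KO (-4.16 ± 0.818, adjusted p = 0.00526). Both calls held in all 22 alternative fits, with adjusted p from 0.000129 to 0.0201 and from 0.000207 to 0.0463. In Max_KO the mean was 2.6 ± 2.75 (SD, n = 2) against 10.2 ± 1.34, 3.92-fold lower (log2 change -2.56 ± 0.818, limma adjusted p = 0.0374). That call was lost without Max_KO replicate 2 (log2 change -1.16, adjusted p = 0.169) and without control replicates 1 and 2 (adjusted p = 0.167 and 0.122). It was also lost with a filter of 5 RPM (0.053), without the mean-variance trend (0.0704) and with a term for the number series in the titles (0.0592), over a range of 0.00262 to 0.169 in all alternatives. Without Max_KO replicate 1 the log2 change was -3.96.

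Sphk2 (ENSMUSG00000057342, chromosome 7, 45709467 to 45718002, minus strand) encodes the other sphingosine kinase, part of which acts in the nucleus and at mitochondria. It was at 56.4 and 51 RPM in the controls, 54.8 and 57.4 in Myc_KO, 61.5 and 57.1 in Max_KO, and 62.3 and 54.6 in double_KO. The 8 libraries lay within 1.22-fold of each other. Its log2 changes were 0.06, 0.14 and 0.12 (SE 0.106 each, limma adjusted p = 0.649, 0.309 and 0.397), and the 95% intervals of -0.18 to 0.31, -0.1 to 0.39 and -0.12 to 0.36 bound what could have been missed.

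The promoters of the members that fell in all 3 groups are shown here because Myc and Max dimers bind E-box sequences, with Sphk2 beside them as the kinase that was not called. RefSeq start sites of build GRCm38.p6 matched 6 of the 9 members, with 12 windows in all. Each window is shown by the 250 bases before its start, 5′ to 3′ on the strand of the gene. Capitals mark a CACGTG, the canonical E-box, or a CACGCG on either strand (written CGCGTG when it lies on the other strand).
Sphk1, start 4: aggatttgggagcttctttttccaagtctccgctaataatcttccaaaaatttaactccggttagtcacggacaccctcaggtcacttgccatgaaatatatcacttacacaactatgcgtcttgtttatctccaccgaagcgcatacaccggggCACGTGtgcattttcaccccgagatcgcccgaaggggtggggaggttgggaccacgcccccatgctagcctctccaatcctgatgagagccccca
Sphk1, start 3: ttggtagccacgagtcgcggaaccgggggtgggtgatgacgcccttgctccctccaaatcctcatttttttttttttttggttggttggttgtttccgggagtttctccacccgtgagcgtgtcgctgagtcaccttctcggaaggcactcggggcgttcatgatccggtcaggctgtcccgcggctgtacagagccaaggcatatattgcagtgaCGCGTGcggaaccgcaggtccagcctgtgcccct
S1pr2: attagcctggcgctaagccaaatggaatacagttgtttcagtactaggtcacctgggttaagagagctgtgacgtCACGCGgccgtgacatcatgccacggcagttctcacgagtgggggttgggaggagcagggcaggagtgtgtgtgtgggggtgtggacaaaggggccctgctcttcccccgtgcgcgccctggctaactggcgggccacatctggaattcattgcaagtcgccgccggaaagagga
Sphk2, start 1: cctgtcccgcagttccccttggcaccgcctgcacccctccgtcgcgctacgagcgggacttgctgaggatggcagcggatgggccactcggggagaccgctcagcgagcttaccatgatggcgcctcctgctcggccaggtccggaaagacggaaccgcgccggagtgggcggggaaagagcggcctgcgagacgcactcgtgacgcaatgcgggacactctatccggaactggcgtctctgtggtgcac

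The stretch of Sphk1 start 4 (chr11:116532194-116532443) holds a CACGTG whose first base is at -95 from that start, and that of start 5 overlaps it and holds the same site. The stretch of Sphk1 start 3 (chr11:116531661-116531910) holds a CACGCG on the other strand at -34. The same site lies at 40 after start 2, whose own 250 bases before the start hold neither sequence. Both stretches lie inside the annotated gene, downstream of its first start. The S1pr2 stretch (chr9:20976794-20977043, minus strand) lies upstream of the annotated gene and holds a CACGCG at -175. The Sphk2 stretch (chr7:45718003-45718252, minus strand) holds neither sequence, nor do those of Cxcr4, Gpr183 and Ccr6, the first start of Sphk1 and the second of Sphk2. Over all 32851 windows in the table, 6.02% hold CACGTG and 7.62% hold CACGCG in the 250 bases before the start. Sphk1 has 5 windows, and so more room for a match than a gene with 1. Counted by gene over full windows of 300 bases, 8.09% have a CACGTG and 10.5% a CACGCG. A match is a description of the letters only, and binding was not measured in these libraries.

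S1pr1 (ENSMUSG00000045092, chromosome 3, 115710433 to 115715072, minus strand) encodes the receptor that B and T cells need to leave lymphoid tissue. It was at 3.89 and 3.73 RPM in the controls. It was at 21.1 and 33.9 in Myc_KO, at 9.92 and 27.2 in Max_KO, and at 11.2 and 12 in double_KO. All 6 knock-out libraries were above both controls, the Max_KO libraries spanned most of the range of the other knock-outs, and the double_KO libraries lay close together below both Myc_KO libraries.

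Means of S1pr1 were 7.21-fold higher than in the controls in Myc_KO (log2 change 2.81 ± 0.423 SE, limma adjusted p = 0.00116), 4.88-fold in Max_KO (2.11 ± 0.423, adjusted p = 0.00559) and 3.05-fold in double_KO (1.61 ± 0.423, adjusted p = 0.018). The first 2 calls held in all 22 alternative fits, with adjusted p up to 0.0248 and 0.0398. The log2 change in Max_KO was 1.38 without replicate 2 and 2.84 without replicate 1. The call in double_KO was lost without control replicates 1 and 2 (adjusted p = 0.0849 and 0.0868), without double_KO replicates 1 and 2 (0.0608 and 0.0734) and with the 6 undisputed libraries (0.0567). The log2 change stayed between 1.56 and 1.66 in these fits, and the adjusted p ranged from 0.00103 to 0.0868 over all alternatives.

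S1pr2 (ENSMUSG00000043895, chromosome 9, 20962361 to 20976781, minus strand) encodes the receptor that holds back migration through the G proteins G12 and G13. It was at 5.57 and 7.43 RPM in the controls, at 3.36 and 2.43 in Myc_KO, at 3.08 and 1.98 in Max_KO, and at 3.49 and 2.88 in double_KO. The control libraries were above all 6 knock-out libraries, whose levels overlapped between the 3 groups. Reads per library ranged from 35 to 122.

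The fall of S1pr2 was 2.24-fold in Myc_KO (log2 change -1.17 ± 0.331 SE, limma adjusted p = 0.0208), 2.57-fold in Max_KO (-1.38, adjusted p = 0.0122) and 2.04-fold in double_KO (-1.02, adjusted p = 0.0402). Without control replicate 2 the adjusted p was 0.13, 0.0899 and 0.209 in Myc_KO, Max_KO and double_KO. Without control replicate 1 it was 0.0526 in Myc_KO and 0.0849 in double_KO. The call was further lost without Myc_KO replicate 2 in Myc_KO (0.103), without Max_KO replicate 2 in Max_KO (0.0737), and without double_KO replicate 1 or 2 in double_KO (0.0811 and 0.159). The 6 undisputed libraries gave 0.116 in Myc_KO and 0.0737 in double_KO, and the replicate block with the groups of the titles gave 0.0643 and 0.0709. In double_KO it was also lost with a filter of 5 RPM (0.0535), quantile normalization (0.0643) and same-total scaling (0.0622). The log2 change was below 0 in every alternative, from -1.7 to -0.79, and the adjusted p lay between 0.0136 and 0.13 in Myc_KO, 0.00852 and 0.0899 in Max_KO, and 0.0114 and 0.209 in double_KO.

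In bulk RNA of this kind, a smaller share of cells expressing a gene and less of its RNA in each cell cannot be told apart. The 10 B cell markers were all measured and summed to 21800 to 26200 RPM, most of it from Ighm and Cd74. Of these 10, 6, 8 and 4 were above both controls in Myc_KO, Max_KO and double_KO, and 0, 1 and 3 were below them. Pax5, the factor that maintains B cell identity, was at 382 and 375 RPM in the controls and at 980 to 1410 in the knock-out libraries. Ms4a1 (CD20) and Ebf1 were likewise above both controls in all 6. Ighm went the other way in Max_KO and double_KO, at 7130 and 6890 and at 8340 and 10200 against 10500 and 10300. Among the 7 markers of marginal zone and follicular B cells, Cr2 was at 13.8 and 10.3 in the controls against 24 to 61.9, and Ighd at 186 and 148 against 490 to 753, while Mzb1 was at 791 and 838 against 378 to 565. Pax5, Ms4a1, Ebf1, Cr2, Ighd and Mzb1 thus separated the same libraries as S1pr1, S1pr2 and Sphk1. Summed plasma cell markers were at 1210 to 1260 RPM in the controls, 953 to 960 in Myc_KO, 574 to 658 in Max_KO and 799 to 1100 in double_KO, with Xbp1 the highest. Without Xbp1 the sums were 466 to 526, 529 to 589, 348 to 349 and 425 to 684 in the same order. Of the 6 markers, 3, 1 and 3 were above both controls in Myc_KO, Max_KO and double_KO, and 1, 4 and 1 were below them. Beside these counts and those of the B cell markers, 37.9%, 38.3% and 38.6% of all genes tested lay wholly above the controls. Those wholly below made up 37.1%, 35.4% and 35%.

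Markers of other cell types also differed between the groups. The counts below stand beside 37.9%, 38.3% and 38.6% of all genes tested that lay wholly above the controls in Myc_KO, Max_KO and double_KO. Those wholly below made up 37.1%, 35.4% and 35%. Of 9 T cell markers, 8, 7 and 8 were above both controls in Myc_KO, Max_KO and double_KO, and 1 in each, Thy1, was below them. Without Thy1 the list summed to 39.2 to 44.1 RPM in the controls, 121 to 161 in Myc_KO, 78.3 to 95.2 in Max_KO and 82.2 to 126 in double_KO. With Thy1, which was at 323 and 275 in the controls and at 71.2 to 228 in the knock-outs, the sums were 319 to 362, 192 to 237, 249 to 307 and 219 to 235. The defining gene Cd3e was at 0.0311 and 0.273 RPM in the controls and at 0.96 to 3.36 in the knock-outs. Its level in control replicate 1 is the lowest value that library holds, which is the offset alone. Cd8a went from 1.03 and 1.36 to 6.94 to 20.9. Of 7 natural killer cell markers 6 were measured, of which 6, 4 and 6 were above both controls, and their sum was 6.25 to 7.41 RPM in the controls, 59.3 to 94.6 in Myc_KO, 19.9 to 43.2 in Max_KO and 36.2 to 55 in double_KO. It was mostly Gzma, a granzyme, while the defining receptor gene Ncr1 was at 0.881 or less. Of 7 macrophage markers 6 were measured, and they summed to 15.5 to 18.2, 39.8 to 41.3, 17.1 to 17.3 and 28 to 28.5 RPM in the same order. Of these, Csf1r and Lyz2 were at 0.235 and 0.424 or less. Adgre1 was at 0.84 and 1.79 in the controls and at 5.46 to 27.1 in the knock-outs. Without Adgre1 the sums were 14.6 to 16.4, 14.2 to 23.1, 7.17 to 9.38 and 13 to 22.5. Cd68 was below both controls in all 6 knock-out libraries. Of the 6 markers, 3, 2 and 3 were above both controls, and 2, 1 and 2 were below them. Of 6 dendritic cell markers 4 were measured, and they summed to 166 to 194 RPM in the controls, 76.6 to 78.2 in Myc_KO, 92.3 to 113 in Max_KO and 84.2 to 118 in double_KO. Flt3 and Zbtb46 were below both controls in all 6 knock-out libraries, as Sphk1 and S1pr2 were, and Itgax was above them. The T cell markers without Thy1 and the natural killer and macrophage sums had their highest group mean in Myc_KO, as S1pr1 and Cxcr4 did. None of the markers measured was at 0 in all 8 libraries, and the part of these cells in the results was not tested.

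Cxcr4 (ENSMUSG00000045382, chromosome 1, 128588199 to 128592293, minus strand) encodes the receptor for CXCL12. It was at 17.9 and 29.4 RPM in the controls, 52.2 and 59.9 in Myc_KO, 17 and 31.8 in Max_KO, and 23.1 and 40.3 in double_KO. Both Myc_KO libraries were above the other 6, and the remaining groups overlapped. The mean in Myc_KO was 2.37-fold that of the controls (log2 change 1.29 ± 0.364 SE, limma adjusted p = 0.0209). The call was lost without control replicate 1 (adjusted p = 0.153), without Myc_KO replicates 1 and 2 (0.0518 and 0.0833), with the 6 undisputed libraries (0.0625) and without the mean-variance trend (0.0568). With groups from the descriptions the log2 change was 0.6 (0.309), and over all alternatives the adjusted p ranged from 0.00264 to 0.309. Changes in Max_KO and double_KO were 0.02 and 0.41 (SE 0.364 each, limma adjusted p = 0.973 and 0.403). The differences of Max_KO and double_KO from Myc_KO were -1.27 and -0.87 (adjusted p = 0.102 and 0.367). With a term for the number series, the first of these differences passed the threshold (-1.27, adjusted p = 0.0173). In 1 alternative, the replicate block with the groups of the descriptions, the change in double_KO passed the threshold (1.1, adjusted p = 0.00101).

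Ccr7 (ENSMUSG00000037944, chromosome 11, 99144196 to 99155077, minus strand) encodes the receptor for CCL19 and CCL21. It was at 81.8 and 81.5 RPM in the controls, 189 and 100 in Myc_KO, 76.7 and 57.3 in Max_KO, and 103 and 58.5 in double_KO. In each knock-out group the library with a title number in the 30s was the higher one, as are the numbers of both control libraries. Nothing in the labels says that the numbers mark a batch. The log2 change in Myc_KO was 0.75 ± 0.329 SE (limma adjusted p = 0.0947, with a 95% interval whose upper end was 1.51). With the number series as a term it was 1.11 (adjusted p = 0.000217). It also passed the threshold when only the groups compared were fitted (0.0407), with the 6 undisputed libraries (0.00331) and without Myc_KO replicate 2 (0.0198). Without Myc_KO replicate 1, the higher library, the change was 0.3 (0.481). In Max_KO and double_KO it was -0.3 and -0.07 (adjusted p = 0.499 and 0.88), and with the series term 0.06 and 0.29 (0.717 and 0.0878).

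Cxcr5 (ENSMUSG00000047880, chromosome 9, 44511787 to 44561877, minus strand) encodes the receptor for CXCL13. It was at 202 and 227 RPM in the controls, 242 and 207 in Myc_KO, 204 and 250 in Max_KO, and 193 and 205 in double_KO. Every group overlapped the controls. The log2 changes were 0.07, 0.08 and -0.11 (SE 0.123 each, limma adjusted p = 0.693, 0.648 and 0.525), with 95% intervals of -0.22 to 0.35, -0.2 to 0.36 and -0.39 to 0.18.

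Gpr183 (ENSMUSG00000051212, chromosome 14, 121952551 to 121965195, minus strand) encodes the receptor for 7α,25-dihydroxycholesterol. It was at 104 and 141 RPM in the controls, 96.7 and 98.3 in Myc_KO, 99.8 and 112 in Max_KO, and 96.9 and 101 in double_KO. Control replicate 2 was above all other libraries. Log2 changes were -0.31, -0.2 and -0.29 (SE 0.136 each, limma adjusted p = 0.093, 0.284 and 0.125). Without control replicate 1 all 3 passed the threshold (-0.53, -0.41 and -0.51, adjusted p = 0.0166, 0.0448 and 0.0247), and without control replicate 2 the changes were -0.1, 0.02 and -0.08 (0.545, 0.913 and 0.662). The replicate block with the groups of the titles called Myc_KO (-0.46, adjusted p = 0.0133).

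Ccr6 (ENSMUSG00000040899, chromosome 17, 8236043 to 8257141, plus strand) encodes the receptor for CCL20 and was the lowest of the chemokine receptors here. It was at 3.45 and 2.27 RPM in the controls, 1.93 and 3.66 in Myc_KO, 2.86 and 6.56 in Max_KO, and 2.77 and 3.87 in double_KO, on 29 to 117 reads a library. Every group overlapped the controls. The log2 changes were -0.08, 0.63 and 0.22 (SE 0.486 each, limma adjusted p = 0.911, 0.336 and 0.746). The 95% intervals, as wide as -0.49 to 1.74 in Max_KO, do not exclude changes of 2-fold at this depth and spread.

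**Figure D2:**
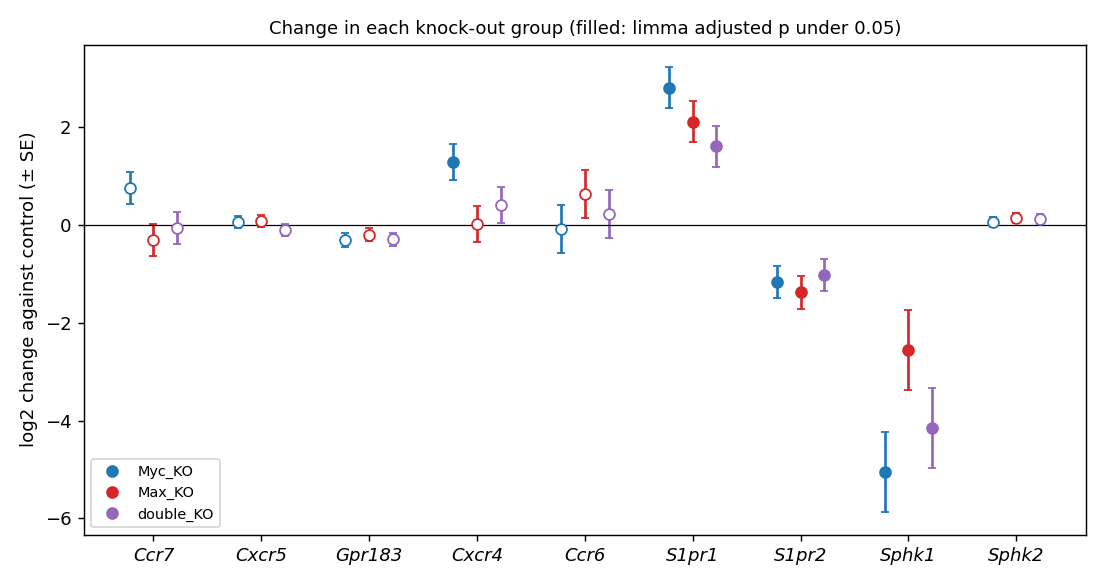
Log2 change of each gene against the controls (vertical axis) with its SE from limma, in Myc_KO (blue), Max_KO (red) and double_KO (purple); filled points passed the adjusted threshold of 0.05. S1pr1 is above 0 and S1pr2 and Sphk1 below 0 in all 3 groups, Cxcr4 is filled in Myc_KO alone, and the points of Cxcr5 and Sphk2 lie within -0.11 and 0.14.

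Levels of different genes were compared per kilobase of exon in the GENCODE vM21 annotation. In the controls Cxcr5 was highest, at 64.3 ± 5.3 RPM per kb (SD, n = 2). Gpr183 at 42.4 ± 8.91 and Ccr7 at 41.3 ± 0.126 overlapped, as did Cxcr4 at 13.1 ± 4.52 and Sphk2 at 12.9 ± 0.912. Sphk1 followed at 2.13 ± 0.28, then S1pr1 at 1.25 ± 0.0374 and Ccr6 at 1.23 ± 0.36, which overlapped, and S1pr2 at 0.815 ± 0.165. In Myc_KO, S1pr1 reached 9.01 ± 2.97 RPM per kb and Sphk1 was last at 0.0661 ± 0.0253. The ratio of the kinases on this scale thus differed between groups, with Sphk2 at 13.5 ± 0.439 in Myc_KO, 14.3 ± 0.752 in Max_KO and 14.1 ± 1.3 in double_KO, and Sphk1 at 0.544 ± 0.576 in Max_KO and 0.121 ± 0.0329 in double_KO. With the length of the longest transcript in place of the union of exons, Sphk2 passed Cxcr4 and Ccr6 passed S1pr1 in the controls.

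**Figure D3:**
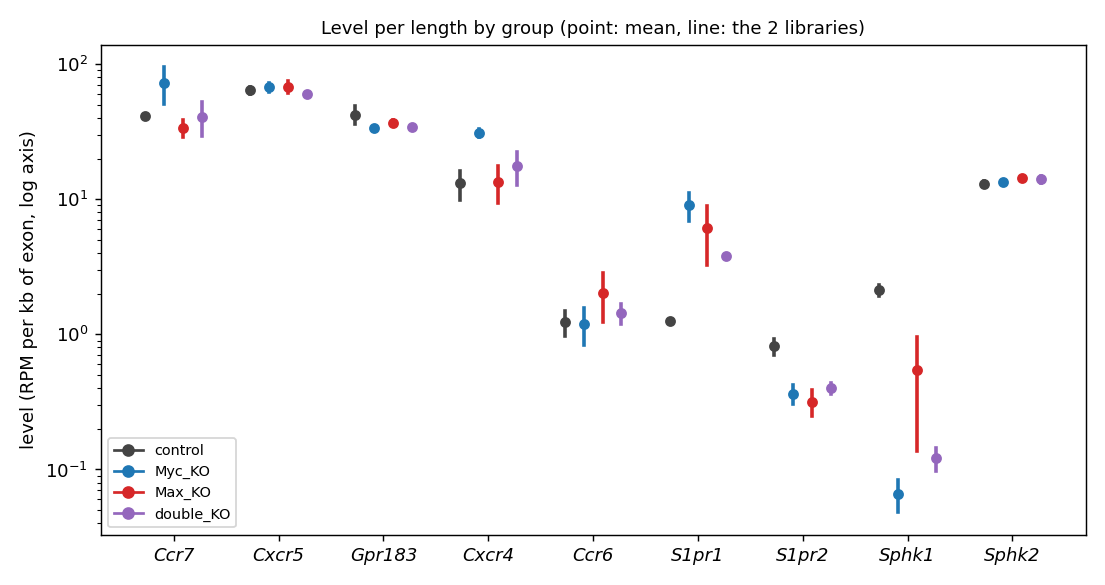
Level per kilobase of exon (log axis) of each gene by group, with a point at the mean and a line joining the 2 libraries. Cxcr5, Gpr183 and Ccr7 are the highest in the controls, S1pr1 lies between 3.82 and 9.01 in the knock-out groups against 1.25 in the controls, and Sphk1 spans the widest range.

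The knock-out groups were then compared with each other. No member was called between Max_KO and Myc_KO (beside 4.12% of all genes), between double_KO and Myc_KO (0.456%) or between double_KO and Max_KO (0.04%), with limma and the same adjustment. At an unadjusted p under 0.05, 3 members differed between Max_KO and Myc_KO, 3 between double_KO and Myc_KO and 0 between double_KO and Max_KO, beside 19.4%, 12.8% and 6.05% of all genes at that unadjusted threshold. Of these, Sphk1 differed by 2.5 ± 0.818 SE on the log2 scale between Max_KO and Myc_KO, 5.67-fold higher (unadjusted p = 0.0151, limma adjusted p = 0.141). The ratio of the mean RPM was 8.23, a mean to which Max_KO replicate 1 gave most. Without Max_KO replicate 2 this difference was 3.9 (adjusted p = 0.00945), and Cxcr4 (-1.72, 0.0413) and S1pr1 (-1.43, 0.0384) also passed. Without Max_KO replicate 1 the 3 differences were 1.1 (0.518), -0.81 (0.408) and 0.03 (0.979). S1pr1 was 2.36-fold lower in double_KO than in Myc_KO (-1.2 ± 0.423, unadjusted p = 0.0213, adjusted p = 0.297). Ccr7 was 2.16-fold lower in Max_KO than in Myc_KO (-1.05 ± 0.329, unadjusted p = 0.0121, adjusted p = 0.127), a difference that passed with the number series as a term (0.00266) and with the 6 undisputed libraries (0.0124).

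The interaction asks whether the double_KO change equals the sum of the Myc_KO and Max_KO changes on the log2 scale. It was called for 2 members, S1pr1, with a value below 0, and S1pr2, with a value above 0, beside 27.3% of all genes (15.0% below and 12.3% above). For S1pr1 the single changes summed to 4.92 and the double_KO change was 1.61, a difference of -3.31 ± 0.599 SE (limma adjusted p = 0.00599). For S1pr2 they summed to -2.55 against -1.02, a difference of 1.53 ± 0.468 (adjusted p = 0.0431). For Sphk1 they summed to -7.62 against -4.16 (3.46 ± 1.16, adjusted p = 0.0577), and the difference was 4.86 without Max_KO replicate 1 (adjusted p = 0.00458) and 2.06 without Max_KO replicate 2 (0.0872). It also passed for Sphk1 on the log2(RPM + 1) scale (adjusted p = 0.0451), on which a level cannot fall below 0. Sphk1 reads summed to 10 in Myc_KO and 20 in double_KO, which left little room for a fall as large as the sum. The Sphk1 differences therefore cannot show whether the 2 single changes add up. For Ccr7 the difference was -0.52 (adjusted p = 0.436). It passed with a term for the number series (-0.88, 0.00511) and with the 6 undisputed libraries (-1.39, 0.0147), and was -0.07 (0.919) without Myc_KO replicate 1. The S1pr1 call was lost with groups from the descriptions (-1.71, adjusted p = 0.168), where the double_KO change was 2.41, and it held in the other 20 alternatives. The S1pr2 call held in 7 of 21, with adjusted p from 0.0287 to 0.2. It was lost without control replicate 1 (0.0814), control replicate 2 (0.144), Myc_KO replicate 2 (0.109), Max_KO replicate 2 (0.121), double_KO replicate 1 (0.115) and double_KO replicate 2 (0.0702).

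**Figure D4:**
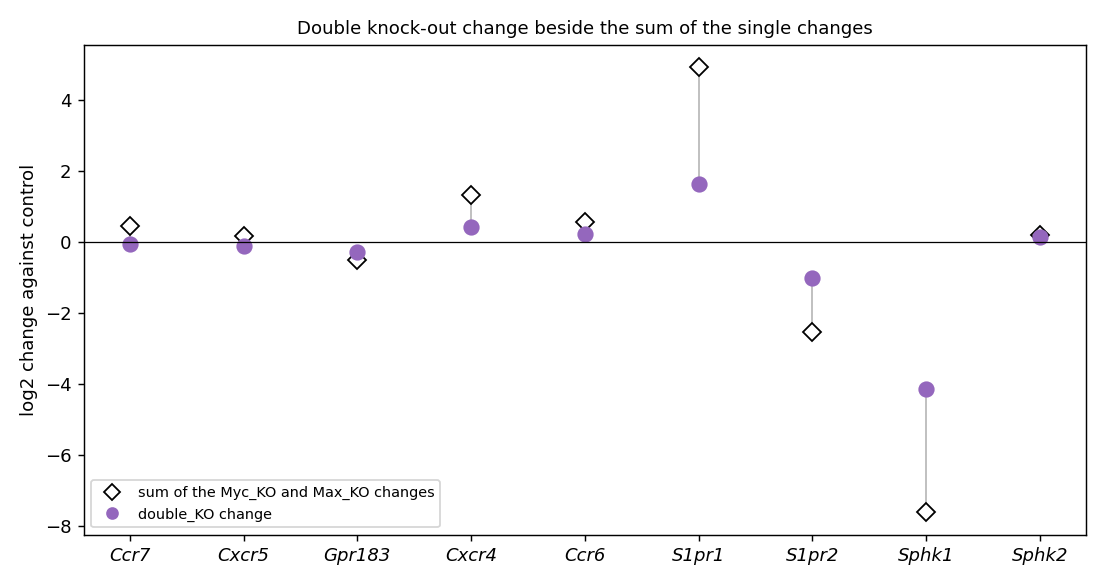
For each gene, the log2 change of double_KO against the controls (purple circle) beside the sum of the Myc_KO and Max_KO changes (open diamond), joined by a grey line. The circles of S1pr1, S1pr2 and Sphk1 lie nearer to 0 than their diamonds, at 1.61 against 4.92, -1.02 against -2.55 and -4.16 against -7.62. For Sphk1, few reads in the knock-outs left little room for a fall as large as the sum.

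Around the sphingosine 1-phosphate receptors and kinases, 8 further genes of receptors and transporters were tested. Of these, 4 rose in Myc_KO, 3 in Max_KO and 4 in double_KO, while 3, 0 and 1 fell (median log2 changes 0.12, 0.05 and 0.1). Beside this list and those below, 24.0%, 22.3% and 21.8% of all genes tested were called higher in the 3 groups. Those called lower were 21.4%, 17.4% and 16.8%, and the medians of all genes were 0, 0.02 and 0.02. Spns2, which exports sphingosine 1-phosphate, was at 1.34 and 1 RPM in the controls, 11.2 and 12.1 in Myc_KO, 11.7 and 8.25 in Max_KO, and 7.85 and 7.16 in double_KO. Its log2 changes of 3.33, 3.09 and 2.69 (SE 0.256 each, limma adjusted p = 6.87e-05, 0.000237 and 0.000262) were called in every alternative. S1pr3, another receptor of the family, was at 12.7 and 21.5 RPM in the controls and at 90.5 and 94.3 in Myc_KO, 30.5 and 42.5 in Max_KO, and 41.6 and 36.1 in double_KO (log2 changes 2.48, 1.13 and 1.23), and its call held in every alternative but 1, in Max_KO. All 6 knock-out libraries were above the controls for Spns2 and S1pr3. S1pr4, a further receptor, was at 74.4 and 69.3 RPM in the controls, 45.9 and 54 in Myc_KO, 76.1 and 60.6 in Max_KO, and 50 and 53 in double_KO. It fell in Myc_KO and double_KO (log2 changes -0.53 and -0.48, limma adjusted p = 0.0128 and 0.022) and was not called in Max_KO (-0.08, 0.663). The 2 calls held in 20 and 15 of 22 alternatives. Without control replicate 1 the number called in this list was 3 in Myc_KO and 3 in double_KO, and without Myc_KO replicate 1 it was 4 in Myc_KO. In double_KO it was also 3 without control replicate 2 and without double_KO replicate 1 or 2.

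Of 27 tested enzymes of sphingolipid metabolism, 7 rose in Myc_KO, 6 in Max_KO and 6 in double_KO, while 3, 3 and 4 fell (medians 0.04, 0.02 and 0.04). Beside these, 45.4%, 39.7% and 38.6% of all genes were called in either direction. Sgpl1, the lyase that breaks sphingosine 1-phosphate down, was at 66 and 79.9 RPM in the controls and at 149 to 189 in the knock-out libraries, with log2 changes of 1.21, 1.21 and 1.16 (SE 0.154 each, limma adjusted p = 0.000541, 0.000763 and 0.000925). Sgms1, a sphingomyelin synthase, was at 8.12 and 9.55 in the controls and at 18.5 to 33 in the knock-outs. Plpp2, a phosphatase that acts on lipid phosphates, was at 13.6 and 15.5 in the controls and at 2.71 to 5.19 in the knock-outs. These 3 genes were called in every alternative. The number called fell from 10 to 6 in Myc_KO without Myc_KO replicate 1, from 9 to 5 in Max_KO without control replicate 1, control replicate 2 or Max_KO replicate 2, and from 10 to 5 in double_KO without control replicate 2, and to 6 without control replicate 1 or double_KO replicate 1 or 2.

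Of 8 other chemokine receptors tested, 2 rose in Myc_KO, 1 in Max_KO and 2 in double_KO, while 3, 3 and 3 fell (medians 0.45, 0.17 and 0.16). Ccr4, the receptor for CCL17 and CCL22, was at 12.6 and 12.1 RPM in the controls and at 1.87 to 4.54 in the knock-outs (log2 changes -1.78, -2.68 and -1.96, SE 0.334 each, limma adjusted p = 0.00337, 0.000704 and 0.00276). Ackr2, a decoy receptor for inflammatory chemokines, was at 10.4 and 10.9 in the controls and at 3.75 to 5.1 in the knock-outs. Of 7 chemokine genes tested 4 rose in Myc_KO, 3 in Max_KO and 4 in double_KO and none fell (medians 1.7, 0.61 and 1.39). The shares of all genes called higher were 24.0%, 22.3% and 21.8%, and of those called lower 21.4%, 17.4% and 16.8%. Cxcl10, a ligand of CXCR3, went from 1.09 and 1.49 RPM to 3.81 to 10.6. Ccr4, Ackr2 and Cxcl10 were called in every alternative in all 3 groups. Without control replicate 1 or 2 the number of receptors called was 3 in Myc_KO and 3 in double_KO, and in double_KO it was also 3 without double_KO replicate 1 or 2. Of the enzymes that make or remove the GPR183 ligand, 1 was tested. Hsd3b7, which clears it, was at 3.9 and 4.97 RPM in the controls, 2.48 and 1.41 in Myc_KO, 0.849 and 1.04 in Max_KO and 0.809 and 0.545 in double_KO, and fell in Max_KO and double_KO in every alternative (log2 changes -2.23 and -2.73, limma adjusted p = 0.00488 and 0.00204). In Myc_KO its call (adjusted p = 0.0464) held in 9 of 21 alternatives (0.0165 to 0.225) and was lost without control replicate 1 or 2, Myc_KO replicate 2 or Max_KO replicate 1 or 2.

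Of 34 genes of G protein signalling and its brakes, 11 rose in Myc_KO, 12 in Max_KO and 7 in double_KO, while 5, 7 and 7 fell (medians 0.16, 0.14 and 0.15). Dock2, the exchange factor that activates Rac below chemokine receptors, was at 264 and 253 RPM in the controls and at 425 to 493 in the knock-outs. Pik3r5, the regulatory subunit of the phosphoinositide 3-kinase that these receptors engage, was at 58.2 and 55.3 in the controls and at 17 to 28.9 in the knock-outs. Pik3cg, the catalytic subunit, went the other way, from 7.06 and 9.01 RPM in the controls to 12.6 to 44.9 in the knock-outs. Its log2 changes were 2.38, 0.95 and 1.88 (SE 0.277 each, limma adjusted p = 0.000343, 0.0263 and 0.00147). The call in Max_KO held in 18 of 22 alternatives. Of 17 adhesion molecules of homing, 8 rose in Myc_KO, 9 in Max_KO and 8 in double_KO, while 3, 2 and 1 fell (medians 0.39, 0.54 and 0.49). Itgal, the integrin chain of LFA-1, was at 283 and 282 RPM in the controls and at 411 to 641 in the knock-outs, and Selplg, the selectin ligand PSGL-1, was at 288 and 291 against 148 to 188. Of 15 regulators of the receptors, 9 rose in Myc_KO, 8 in Max_KO and 7 in double_KO, while 2, 1 and 1 fell (medians 0.49, 0.37 and 0.34). Beside these 3 lists, 24.0%, 22.3% and 21.8% of all genes were called higher and 21.4%, 17.4% and 16.8% lower. Foxp1, which encodes a transcription factor, was at 99.7 and 92.4 RPM in the controls and at 276 to 434 in the knock-outs. Hif1a, the oxygen-regulated transcription factor, was at 59.6 and 60.4 in the controls and at 113 to 131 in the knock-outs. Dock2, Pik3r5, Itgal, Selplg, Foxp1 and Hif1a were called in every alternative in all 3 groups.

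The numbers called in these 3 lists depended on the control libraries. Without control replicate 1 they were 7, 9 and 9 for G protein signalling in Myc_KO, Max_KO and double_KO, 7 and 7 for adhesion in Myc_KO and Max_KO, and 7, 4 and 5 for the regulators. Without control replicate 2 they were 10 for G protein signalling in Max_KO, 6 and 5 for adhesion in Max_KO and double_KO, and 5 and 5 for the regulators in Max_KO and double_KO. Without double_KO replicate 2 the number for adhesion in double_KO was 5.

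The genes whose log2 values over the 8 libraries were most like those of a member were listed among 9354 tested genes with a mean of at least 5 RPM, as a description. For Sphk1 they were Mast3, a kinase gene (Pearson r = 0.995), and Il4ra, which encodes a chain of the interleukin 4 receptor (r = 0.99). Il4ra was at 1540 and 1430 RPM in the controls, 728 and 760 in Myc_KO, 1160 and 845 in Max_KO, and 920 and 797 in double_KO, so that it shared with Sphk1 the higher level of Max_KO replicate 1 over replicate 2. For S1pr1 they were H2-Eb1, a chain of an MHC class II molecule (r = 0.993), and the kinase gene Tlk2 (0.989), and for S1pr2 Dnaaf5 (0.99) and Ccng1, which encodes cyclin G1 (0.989). Ccng1 was at 278 and 299 RPM in the controls and at 204 to 244 in the knock-outs. For Cxcr4 they were the transcription factor gene Mef2a and Iqsec2 (0.963 each), and for Ccr7 the lipase gene Abhd6 (0.983) and the DNA glycosylase gene Mbd4 (0.963). The likeness of the remaining members, whose levels varied little or rested on few reads, reached 0.858 for Cxcr5, 0.933 for Ccr6, 0.936 for Gpr183 and 0.967 for Sphk2. These correlations share 8 libraries in 4 groups and the choice of the highest of many genes.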

How the data were processed

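RNA sequencing values of 8 libraries from cultured mouse splenic B cells were used. Per the submitters' processing notes, CASAVA 1.8, cutadapt, RSEM 1.2.3 and the build GRCm38 were used, while for the step behind the final values a tool is not given in the sources used here. All deposited values are on a log2 scale. From the values, they are log2 of estimated reads plus 0.5 per M reads of an effective library size, so that a level in RPM given here is 2 to the power of the value and includes that offset. Symbols came from GENCODE vM21, which named 15622 of 15681 genes. Promoter stretches are from RefSeq, build GRCm38.p6.

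The values were already log2 and were tested as deposited, with no further pseudocount. limma 3.58.1 in R 4.3.3 (linear model of the 4 groups, empirical Bayes with a mean-variance trend, 4 residual degrees of freedom) was fitted to the 12489 genes with at least 1 RPM in 2 libraries. P-values are two-sided and adjusted over all of them by Benjamini-Hochberg, with a threshold of 0.05. The fit was tested on simulated data. Groups came from the titles. Replicates carry no number there and were numbered in accession order. Named genes are the 9 members, up to 2 rising and 2 falling genes of lowest adjusted p in each of 8 pathway lists and comparison, from which examples are given, and the 2 genes most like each member. The members and lists were chosen with earlier results of these data known. Alternatives changed the scaling, filter, scale, prior, groups, blocks and libraries. Totals of 14.88 to 17.91 M reads set the precision of low genes, and with 2 libraries a group the SD is itself imprecise. Markers of neutrophils and red cells were not analysed here.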

Additional observations from a re-analysis of the deposited data

Results flagged for a closer look

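The step from control to Myc_KO differed from the step from Max_KO to double_KO for 2 of the 9 genes. This was by a test of the difference itself (limma interaction, adjusted over all genes, beside 27.3% of all genes called). For S1pr1 the log2 change was 2.81 from control to Myc_KO and -0.50 from Max_KO to double_KO, a difference of -3.31 (limma adjusted p = 0.00599). For S1pr2 it was -1.17 and 0.36, a difference of 1.53 (limma adjusted p = 0.0431), which was lost in 14 of 21 alternatives. With groups from the descriptions the S1pr1 difference was -1.71 (adjusted p = 0.168). With groups from the titles, neither gene passed the threshold between Max_KO and double_KO. Max was at 28.6 and 31.2 RPM in double_KO and at 16.4 and 15.5 in Max_KO, so that its RNA was not equally low in these 2 groups. The labels do not say whether the controls were heterozygous at Max.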

How the results depend on the processing

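Of 1370 values of the members' log2 changes under the alternatives, 1300 kept their side of the threshold, 48 lost a call, 22 gained one and 0 of the called values changed sign. At an adjusted p of 0.01 the members called were 2, 1 and 1 in Myc_KO, Max_KO and double_KO, and 1 for the interaction. With the 6 undisputed libraries they were 1 in double_KO, 1 between Max_KO and Myc_KO and 1 between double_KO and Myc_KO. With the number series as a term they were 2 and 1 in these last comparisons. The interaction was called for 0 members with groups from the descriptions and for 1 with a filter of 5 RPM, with no filter, with quantile normalization, with same-total scaling and with the replicate block under either grouping. The replicate block with groups from the descriptions also called 1 member between double_KO and Max_KO. Leaving out 1 library gave 3 to 4, 1 to 3 and 1 to 3 members against the controls, 0 to 3 between Max_KO and Myc_KO and 1 to 3 for the interaction. The causes were not tested.

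Over all genes, 5671, 4954 and 4823 were called in Myc_KO, Max_KO and double_KO. These were 3516, 2787 and 2740 at an adjusted p of 0.01, and 2072, 1520 and 1518 with a 2-fold change required. Leaving out 1 library gave 3397 to 5612, 2676 to 5027 and 2650 to 4932, with the lowest counts without control replicate 1. Same-total scaling moved the median change of all genes to 0.15, 0.12 and 0.14 and the share of calls that were higher from 52.8%, 56.2% and 56.6% to 66.4%, 66.7% and 68.9%. The replicate numbers of the descriptions did not pair the samples by the labels, and the correlation of deviations between groups ran from -0.11 to 0.26, so the block is an alternative only. With 2 libraries a group, and few reads for Sphk1, S1pr2 and Ccr6, modest changes of these genes could have been missed.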
